A study of Mus musculus with 24 samples.

Results

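The metallothioneins *Mt1*, *Mt2* and *Mt3* and the gene of their regulator, *Mtf1*, were followed through an RNA-seq experiment on mouse myoblasts. These 4 genes were chosen by name from the 55291 gene symbols of the count table. Libraries came from control myoblasts that expressed a scrambled shRNA (scr) and from *Baf180*, *Baf250a* and *Brd9* knockdown (KD) myoblasts. The knockdowns lower, without removing, a subunit of the PBAF, BAF and ncBAF forms of the SWI/SNF chromatin remodeller, in this order. Each of the 4 lines was grown without added metal (NT), with 100 µM CuSO4 (Cu) or with 50 µM ZnSO4 (Zn) for 48 h, with 2 biological replicates in each of the 12 conditions. Every line, scr included, was a puromycin-selected population that carried an shRNA vector, as the study's methods describe it. Those methods name C2C12 cells, an established mouse myoblast line, while the sample labels describe primary mouse myoblasts and a lipofectamine-based knockdown. Which of the listed shRNAs these libraries carried is not given in the sources used here.

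Metallothioneins are small, cysteine-rich proteins that bind Zn and Cu in the cell and buffer their free levels. *Mt1* and *Mt2* are widely expressed and metal-inducible, *Mt3* is best known from the brain, and *Mt4* from stratified squamous epithelium. MTF1 is a zinc-finger transcription factor that senses Zn, moves to the nucleus and binds metal response elements, short DNA motifs with the core TGCACNC or TGCGCNC, in front of metallothionein genes and of the Zn exporter gene *Slc30a1*.

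In the GENCODE M21 annotation of GRCm38, *Mt3*, *Mt2* and *Mt1* lie in this order on the plus strand of chromosome 8. *Mt3* spans chr8:94152607-94154146, *Mt2* chr8:94172664-94173568 and *Mt1* chr8:94179082-94180327, with 5513 bases between the end of *Mt2* and the start of *Mt1*. *Mtf1* spans chr4:124802104-124849800, also on the plus strand. The sequences in front of the 3 metallothionein starts are shown because the binding motif of MTF1 is searched there. They are RefSeq promoter sequence of build GRCm38.p6, plus strand, 5′ to 3′, up to the first annotated start, from chr8:94178839-94179081 (*Mt1*), chr8:94172368-94172617 (*Mt2*) and chr8:94152357-94152606 (*Mt3*). Capitals mark matches to TGCACNC or TGCGCNC on either strand.
Mt1: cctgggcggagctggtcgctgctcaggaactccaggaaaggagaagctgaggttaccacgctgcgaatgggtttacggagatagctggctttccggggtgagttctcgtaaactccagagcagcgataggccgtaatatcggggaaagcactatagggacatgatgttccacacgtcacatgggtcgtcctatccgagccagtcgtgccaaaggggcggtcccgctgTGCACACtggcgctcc
Mt2: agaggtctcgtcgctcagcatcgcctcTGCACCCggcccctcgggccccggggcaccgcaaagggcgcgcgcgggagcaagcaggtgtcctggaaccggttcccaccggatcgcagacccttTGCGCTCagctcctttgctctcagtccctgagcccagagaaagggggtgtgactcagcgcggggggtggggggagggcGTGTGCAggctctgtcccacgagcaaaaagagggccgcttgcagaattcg
Mt3: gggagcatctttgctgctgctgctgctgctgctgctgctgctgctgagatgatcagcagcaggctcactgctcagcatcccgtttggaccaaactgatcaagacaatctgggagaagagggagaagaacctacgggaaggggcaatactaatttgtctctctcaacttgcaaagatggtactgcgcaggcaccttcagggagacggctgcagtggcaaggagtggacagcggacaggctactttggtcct

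Within the RefSeq windows from 250 bases before to 50 bases after a start, *Mt2* held 4 matches on the 2 strands and *Mt1* held 3. In *Mt2* they began at positions -223, -128, -50 and 5 from the RefSeq start, and in *Mt1* at -23, 3 and 21. Of 32817 windows of the same length, 0.518% held at least 4 matches, 1.97% at least 3 and 25.7% at least 1. *Mt3* held 1 match, at position 28, *Slc30a1* held 2, and the *Mtf1* window held 0. A match is a description of the letters and not a shown binding site. Sequence outside these windows was not searched, so the counts do not cover elements that lie further from the RefSeq starts.

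The libraries held between 495778 and 75179394 counts, with a median of 22158430, and all but 1 held at least 12719173. The exception was replicate 2 of *Baf250a* KD cells in Zn, where 312 counts of *Mt1*, 145 of *Mt2* and 18 of *Mtf1* were behind the values. Each targeted mRNA was lower in all 6 libraries of its KD line than in any of the 6 scr libraries. *Pbrm1*, the gene of Baf180, stood at 70.7 ± 6.95 CPM (SD) in untreated *Baf180* KD and 121 ± 30.3 in untreated scr, and at 57.1 ± 8.54 and 225 ± 3.60 in Zn. Over the 6 libraries of a line, *Arid1a*, the gene of Baf250a, was at 38.2% of the scr mean, and *Brd9* at 55.0%. Of the 5 myoblast markers, *Myod1*, *Myf5*, *Des* and *Cdh15* were expressed in every library, while *Pax7* did not exceed 5.41 CPM. The summed level of *Ptprc*, *Pecam1* and *Epcam*, markers of leukocytes, endothelium and epithelium, stayed between 0 and 0.377 CPM in all 24 libraries. CPM, the unit of level used here, is a count relative to the TMM-scaled total of its library, and the n of each condition was 2.

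Without added metal, *Mt1* and *Mt2* were higher in all 3 KD lines than in scr cells. *Mt1* stood at 55.2 and 65.1 CPM in the 2 scr libraries, at 282 and 218 in *Baf180* KD, at 273 and 261 in *Baf250a* KD and at 167 and 150 in *Brd9* KD. *Mt2* stood at 18.2 and 20.8 CPM in scr, at 110 and 96.3 in *Baf180* KD, at 106 and 109 in *Baf250a* KD and at 66.1 and 58.9 in *Brd9* KD. For both genes every KD library lay above both scr libraries, and the 2 *Brd9* KD libraries lay below those of the other KD lines. The *Baf180* KD and *Baf250a* KD levels overlapped for *Mt1* and for *Mt2*. In bulk RNA, a change in every cell and a change in the share of cells that express a gene cannot be told apart.

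On the log2 scale, *Mt1* was higher than in scr by 2.07 ± 0.14 (SE) in *Baf180* KD, 2.15 ± 0.11 in *Baf250a* KD and 1.42 ± 0.11 in *Brd9* KD. In edgeR's quasi-likelihood test with Benjamini-Hochberg adjustment over all genes tested, the adjusted p values were 4.41e-07, 7.66e-09 and 1.67e-04. *Mt2* was higher by 2.42 ± 0.12, 2.46 ± 0.12 and 1.70 ± 0.12, with edgeR adjusted p values of 6.59e-08, 2.43e-09 and 1.02e-04. Among all genes tested, 41.0% were called in *Baf180* KD, 57.8% in *Baf250a* KD and 29.2% in *Brd9* KD at the same threshold (adjusted p under 0.05), and 21.7%, 28.9% and 15.1% were called higher. A call as such was therefore common in these comparisons. The median log2 difference over all genes was 0.03, 0.00 and 0.01, beside which the values of *Mt1* and *Mt2* were large.

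Muscle genes differed between the same lines. The summed level of the 5 myoblast markers was 2899 to 3193 CPM in untreated scr cells and 1480 to 1624, 1086 to 1209 and 1686 to 1863 in untreated *Baf180*, *Baf250a* and *Brd9* KD cells. That of 4 differentiation markers (*Myog*, *Myh3*, *Ckm*, *Acta1*) was 75.8 to 77.1 in scr, 129 to 143 in *Baf180* KD, 50.1 to 57.4 in *Baf250a* KD and 27.5 to 29.2 in *Brd9* KD. Of these 4, edgeR called 2 higher in *Baf180* KD, 2 higher and 2 lower in *Baf250a* KD and 4 lower in *Brd9* KD. The myoblast sum was mostly *Des*, with a mean of 2370 CPM in untreated scr cells. Among the 5 myoblast markers, *Pax7* was called higher in *Baf180* and *Brd9* KD and *Myod1* in *Baf250a* KD. The numbers called lower were 3, 4 and 3 in *Baf180*, *Baf250a* and *Brd9* KD. Of all genes tested, 41.0%, 57.8% and 29.2% were called. The part of these muscle genes in the metallothionein levels was not tested.

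**Figure D1:**
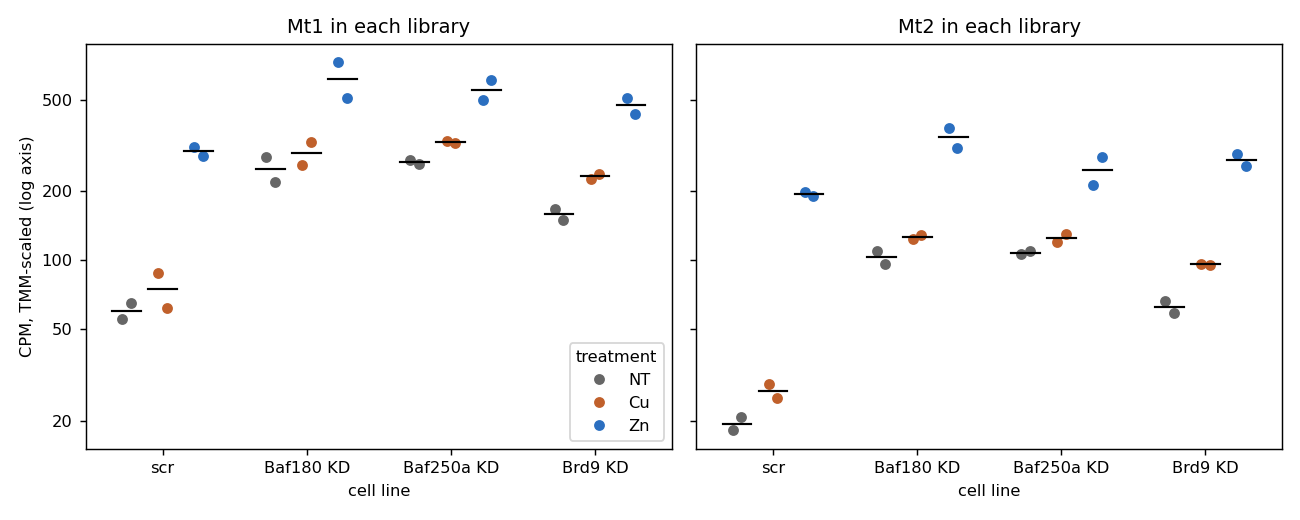
Levels of *Mt1* and *Mt2* in the 24 libraries, as TMM-scaled CPM on a log axis, by cell line and treatment, with points for the 2 libraries of a condition and horizontal lines for their mean. Untreated KD libraries (grey) lie above the untreated scr libraries, and the Zn libraries (blue) lie highest in every line.

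*Mt1* and *Mt2* were higher in Zn in every line, with the highest log2 response in scr cells. In edgeR these responses were called, except that of *Mt1* in *Baf180* KD. *Mt2* reached 198 and 190 CPM in scr cells, 376 and 308 in *Baf180* KD, 212 and 282 in *Baf250a* KD and 289 and 257 in *Brd9* KD. *Mt1* reached 312 and 284 CPM in scr, 726 and 507 in *Baf180* KD, 496 and 607 in *Baf250a* KD and 510 and 434 in *Brd9* KD. In each line both Zn libraries lay above both untreated ones for both genes. In the shallow *Baf250a* KD library, the exact 95% Poisson interval, which covers counting error only, was 541 to 678 CPM for *Mt1* and 238 to 332 CPM for *Mt2*, so its *Mt1* and *Mt2* levels lay above those of the deeper replicate by more than counting error.

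The *Mt2* response to Zn was 3.40 ± 0.11 (log2, SE) in scr, 1.71 ± 0.10 in *Baf180* KD, 1.10 ± 0.11 in *Baf250a* KD and 2.12 ± 0.08 in *Brd9* KD, and edgeR called it in all 4 lines (adjusted p 3.75e-05, 1.46e-04, 1.18e-06 and 1.05e-05). The *Mt1* response was 2.40 ± 0.16 in scr, 1.03 ± 0.11 in *Baf250a* KD and 1.56 ± 0.08 in *Brd9* KD, with edgeR adjusted p values of 0.0032, 2.97e-06 and 1.09e-04. In *Baf180* KD the *Mt1* difference was 1.28 ± 0.17 and missed the threshold in edgeR (adjusted p = 0.0646), while DESeq2 called it (adjusted p = 0.00187), as did edgeR with the replicate number as a block (adjusted p = 0.00119). Its 2 Zn libraries, at 726 and 507 CPM, were the widest pair of replicates among the 12 conditions, and without the lower one the difference was 1.51 with an edgeR adjusted p of 0.00123. Without replicate 2 of untreated scr cells, the scr *Mt1* response was 2.50 with an edgeR adjusted p of 0.0637. Without the shallow *Baf250a* KD library, the responses in that line were 0.88 ± 0.08 for *Mt1* and 0.97 ± 0.08 for *Mt2*, both still called. At the same threshold 17.6% of all genes tested were called for Zn in scr, 0.0197% in *Baf180* KD, 15.9% in *Baf250a* KD and 0.0334% in *Brd9* KD, and 10.5%, 0.0131%, 8.85% and 0.0267% were called higher. In *Baf180* KD these shares stand for 3 genes, which were *Mt2*, *Slc30a1* and *Slc39a10*, and in *Brd9* KD for 5 genes, which included these 3 and *Mt1*. Under other settings the 2 lines had 3 to 657 and 3 to 29 called genes.

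Over the 4 lines, the mean Zn response was 1.55 for *Mt1* and 2.09 for *Mt2* on the log2 CPM scale, higher in 4 of 4 lines for both genes. An exact two-sided permutation test within lines (1296 relabellings) gave p = 0.00154 for each, the smallest p that these relabellings can give, and an adjusted p of 0.00309 over the 6 tests of member and metal.

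Cu moved the same genes far less. *Mt1* stood at 87.6 and 61.7 CPM in scr with Cu, at 260 and 326 in *Baf180* KD, at 329 and 324 in *Baf250a* KD and at 226 and 237 in *Brd9* KD. *Mt2* stood at 29.0 and 25.0 CPM in scr, at 123 and 129 in *Baf180* KD, at 120 and 129 in *Baf250a* KD and at 96.3 and 95.4 in *Brd9* KD. For *Mt2* the Cu and untreated libraries did not overlap in any line, whereas for *Mt1* they overlapped in scr and *Baf180* KD. The *Mt2* difference was 0.48 ± 0.10 in scr, 0.26 ± 0.10 in *Baf180* KD, 0.21 ± 0.10 in *Baf250a* KD and 0.56 ± 0.08 in *Brd9* KD (log2, SE). The *Mt1* difference was 0.32 ± 0.15, 0.20 ± 0.17, 0.29 ± 0.10 and 0.49 ± 0.08 in the same order. It moved between 0.087 and 0.53 in scr without replicate 1 or 2 of scr Cu, and between 0.026 and 0.37 in *Baf180* KD without replicate 2 of Cu or replicate 1 of NT.

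Only *Mt2* in *Brd9* KD passed the threshold in edgeR (adjusted p = 0.0283), and leaving out any 1 of its 4 libraries raised that adjusted p to between 0.0812 and 0.232. With the replicate number as a block, *Mt2* in *Baf180* KD also passed (0.26, edgeR adjusted p = 0.0379). The other 7 edgeR adjusted p values for *Mt1* and *Mt2* lay between 0.0524 and 0.494. Of all genes tested, Cu called 0.0333% in scr, 13.8% in *Baf180* KD, 1.27% in *Baf250a* KD and 0.274% in *Brd9* KD. Over the 4 lines together, the mean difference was 0.34 for *Mt1* and 0.40 for *Mt2*, positive in 4 of 4 lines, with exact permutation p values of 0.00617 and 0.00154 (adjusted 0.00926 and 0.00309). Without the *Baf250a* KD line the adjusted p of *Mt1* was 0.0556 in the exact permutation test.

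**Figure D2:**
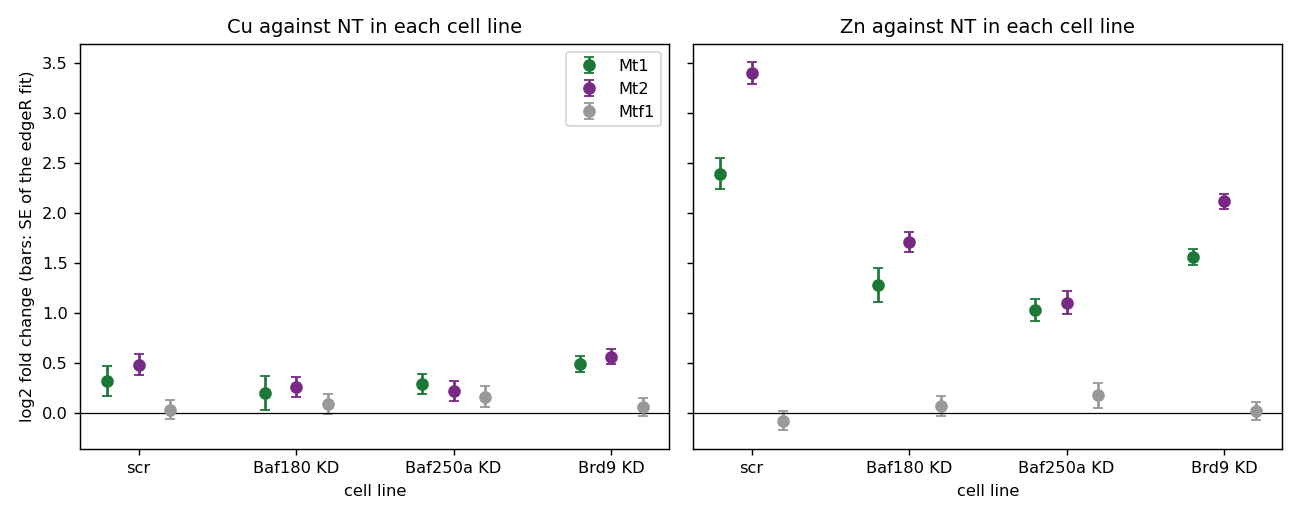
Log2 fold change of *Mt1*, *Mt2* and *Mtf1* in Cu (left) and Zn (right) against untreated cells of the same line, from the edgeR fits, with bars of 1 SE. The Zn responses of *Mt1* and *Mt2* range from 1.03 to 3.40 and are largest in scr cells, and *Mtf1* stays between -0.08 and 0.17.

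The responses to Zn were then compared between lines directly, as the difference of 2 log2 responses in a fit over all 24 libraries. These comparisons share the scr libraries. For *Mt2* the Zn response was smaller than in scr by 1.58 ± 0.17 in *Baf180* KD, 2.18 ± 0.18 in *Baf250a* KD and 1.19 ± 0.17 in *Brd9* KD (edgeR adjusted p 1.81e-04, 1.65e-06 and 0.0184). For *Mt1* it was smaller by 1.01 ± 0.24 in *Baf180* KD and by 1.29 ± 0.25 in *Baf250a* KD (edgeR adjusted p 0.00493 and 9.12e-04), and the difference in *Brd9* KD, -0.73 ± 0.24, missed the threshold in edgeR (adjusted p = 0.0549). The share of all genes called was 28.7%, 30.5% and 11.1% in the 3 comparisons. In *Baf250a* KD the differences without the shallow library were -1.41 for *Mt1* and -2.33 for *Mt2*, both called. After counts were corrected for GC content and length, the *Mt2* difference in *Brd9* KD was larger, at -1.501, but missed the threshold in edgeR (adjusted p = 0.118). At -1.16 to -1.30 it also lost the call without replicate 2 of untreated scr cells or without either scr Zn library (edgeR adjusted p 0.0527 to 0.09). For Cu, 0 of the 9 differences of *Mt1*, *Mt2* and *Mtf1* passed the threshold in edgeR or DESeq2, and 0 had an unadjusted edgeR p under 0.05, with 12.8%, 0.0121% and 0.0363% of all genes called.

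A log2 response is relative to the untreated level, which was higher in the KD lines. As a difference of mean CPM, a scale added after the log2 values were seen, *Mt1* was higher in Zn by 238 ± 14.8 CPM (SE) in scr, 366 ± 114 in *Baf180* KD, 285 ± 55.4 in *Baf250a* KD and 314 ± 38.8 in *Brd9* KD. *Mt2* was higher by 174 ± 3.80 CPM in scr, 239 ± 34.8 in *Baf180* KD, 140 ± 34.8 in *Baf250a* KD and 211 ± 16.5 in *Brd9* KD. The KD minus scr difference of the *Mt1* increase was 128 ± 115, 46.8 ± 57.4 and 75.8 ± 41.5 CPM in *Baf180*, *Baf250a* and *Brd9* KD, and that of the *Mt2* increase was 64.2 ± 35.0, -34.8 ± 35.0 and 36.1 ± 16.9 CPM. No test was made on these differences, and they give no order of scr and KD cells on this scale.

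**Figure D3:**
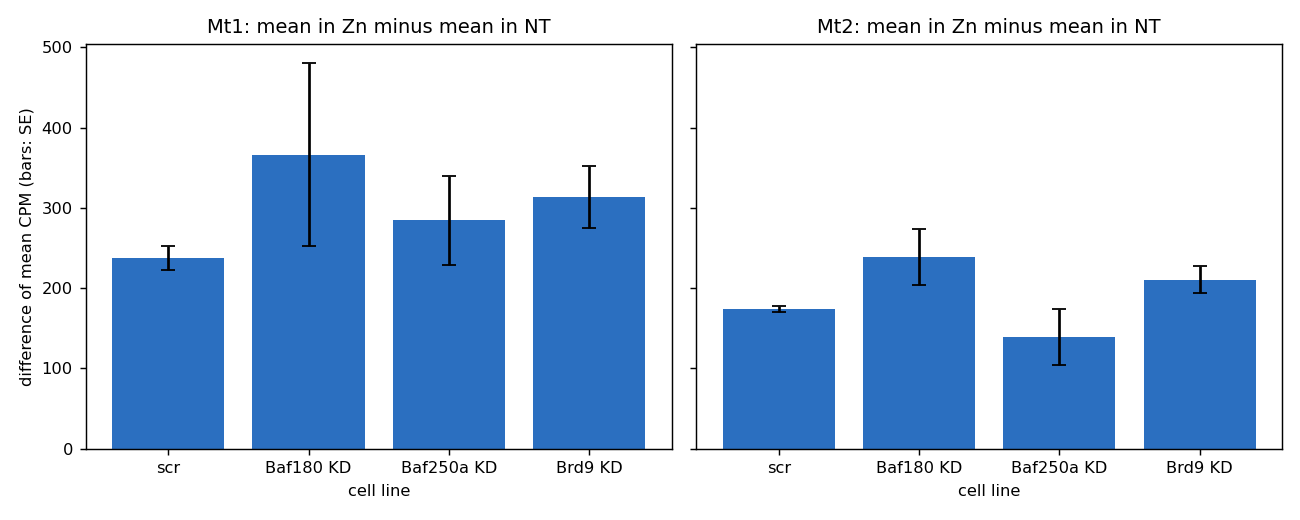
Mean CPM in Zn minus mean CPM in untreated cells for *Mt1* (left) and *Mt2* (right) in each cell line, with bars of 1 SE from 2 libraries a condition. The *Mt1* increase is 238 CPM in scr and 285 to 366 CPM in the KD lines, and the *Mt2* increase is 174 CPM in scr and 140 to 239 CPM in the KD lines.

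With metal present, *Mt1* and *Mt2* were called higher than in scr cells in each KD line, except *Mt2* in *Baf250a* KD with Zn. In Cu, *Mt1* was higher by 1.97 ± 0.18, 2.16 ± 0.17 and 1.63 ± 0.16 on the log2 scale in *Baf180*, *Baf250a* and *Brd9* KD, and *Mt2* by 2.22 ± 0.13, 2.24 ± 0.12 and 1.82 ± 0.11. All 6 were called in edgeR, with adjusted p values of at most 0.00111, where 24.9%, 41.2% and 12.2% of all genes tested were called. In Zn, *Mt1* was higher by 0.98 ± 0.13, 0.86 ± 0.13 and 0.64 ± 0.08 (edgeR adjusted p 4.22e-04, 3.43e-08 and 0.00127). *Mt2* in Zn was higher by 0.76 ± 0.08 in *Baf180* KD and 0.47 ± 0.07 in *Brd9* KD (edgeR adjusted p 1.30e-04 and 0.00264), and in *Baf250a* KD the difference of 0.22 ± 0.11 missed the threshold (edgeR adjusted p = 0.0726). Without the shallow *Baf250a* KD library that difference was 0.09, and without its deeper replicate it was 0.51 with an edgeR adjusted p of 0.00224. The call for *Mt2* in *Brd9* KD in Zn was lost without replicate 2 of scr Zn (edgeR adjusted p = 0.051). In Zn, 49.9%, 57.5% and 23.2% of all genes tested were called.

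*Mt2* and *Mt1* did not change by the same factor in Zn. The ratio of *Mt2* to *Mt1* counts within a library, which does not depend on depth or scaling, was 0.329 and 0.319 in untreated scr cells and 0.633 and 0.670 in scr cells with Zn. In *Baf180* KD it went from 0.390 and 0.442 to 0.518 and 0.607, in *Baf250a* KD from 0.389 and 0.418 to 0.428 and 0.465, and in *Brd9* KD from 0.395 and 0.392 to 0.567 and 0.592. In every line both Zn libraries had a higher ratio than both untreated libraries, and the 2 untreated scr libraries had the lowest ratios of all 24. Over the 4 lines, the log2 ratio was higher in Zn by 0.54, in 4 of 4 lines (exact two-sided permutation test, p = 0.00154, the smallest possible, adjusted 0.00309 over the 2 metals). In Cu it was higher by 0.06, in 3 of 4 lines (exact permutation p = 0.336).

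**Figure D4:**
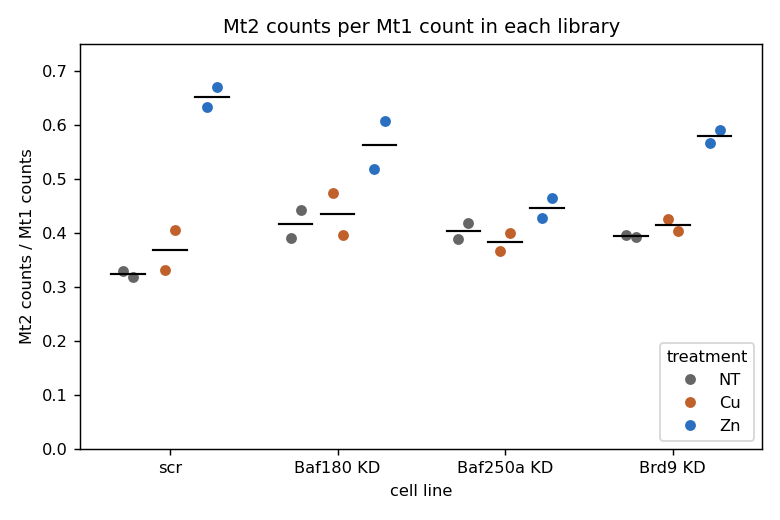
Number of *Mt2* counts per *Mt1* count in each library, by cell line and treatment, with the mean of the 2 libraries as a line. The ratio is highest in Zn (blue) in every line, from 0.428 to 0.670, and lowest in untreated scr cells, at 0.319 and 0.329.

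Per length, *Mt1* was more abundant than *Mt2* in most conditions. Divided by the 549 and 511 bases of the spliced 3-exon transcripts, *Mt1* was above *Mt2* in all 12 conditions, for example 110 ± 12.8 against 38.1 ± 3.59 CPM per kb in untreated scr cells and 543 ± 35.9 against 380 ± 9.88 in scr cells with Zn. Divided by all annotated exonic bases, 1246 for *Mt1* and 588 for *Mt2*, *Mt1* stayed above *Mt2* in 9 of the 12 conditions, with 48.3 ± 5.63 against 33.1 ± 3.12 CPM per kb in untreated scr cells. The order was the opposite in Zn in scr (239 ± 15.8 for *Mt1*, 330 ± 8.59 for *Mt2*), *Baf180* KD and *Brd9* KD cells. The longer *Mt1* model comes from a single-exon transcript that spans its introns. *Mtf1* mRNA was far less abundant, between 4.43 and 6.60 CPM per kb over its 7631-base transcript.

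*Mtf1* mRNA was lower in *Baf250a* KD cells than in scr cells and showed no called response to either metal within a line. It stood at 50.9 and 48.8 CPM in untreated scr cells, 41.7 and 41.0 in *Baf180* KD, 33.0 and 34.6 in *Baf250a* KD and 47.9 and 41.6 in *Brd9* KD. With Cu it stood at 51.7 and 49.0 CPM in scr, 45.4 and 44.6 in *Baf180* KD, 38.3 and 37.4 in *Baf250a* KD and 49.9 and 47.2 in *Brd9* KD. With Zn it stood at 47.1 and 41.8 CPM in scr, 47.5 and 40.7 in *Baf180* KD, 38.5 and 35.0 in *Baf250a* KD and 47.9 and 43.0 in *Brd9* KD. All 6 *Baf250a* KD libraries, at 33.0 to 38.5 CPM, lay below all 6 scr libraries, at 41.8 to 51.7 CPM. Without metal, *Mtf1* was lower than in scr by 0.56 ± 0.11 on the log2 scale in *Baf250a* KD (edgeR adjusted p = 7.96e-04). The differences were -0.25 ± 0.11 in *Baf180* KD and -0.14 ± 0.11 in *Brd9* KD, and neither passed the threshold in edgeR (adjusted p 0.0886 and 0.38). The *Baf180* KD difference passed it once GC content and length were corrected for (-0.48, edgeR adjusted p = 0.00132) and in a fit of all 24 libraries (-0.27, edgeR adjusted p = 0.0341).

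In Cu the *Baf250a* KD difference of *Mtf1* was -0.39 ± 0.11 (edgeR adjusted p = 0.0233), and this call was lost without either *Baf250a* KD Cu library (edgeR adjusted p 0.232 and 0.248). In Zn it was -0.22 ± 0.11 (edgeR adjusted p = 0.0682), and without the shallow library -0.23 with an edgeR adjusted p of 0.0171. That library held only 18 *Mtf1* counts, with an exact 95% Poisson interval of 20.7 to 55.3 CPM. Neither metal gave a called change of *Mtf1* in any line in edgeR or DESeq2, and 0 of the 8 unadjusted edgeR p values lay under 0.05, with log2 differences from 0.03 to 0.16 in Cu and from -0.08 to 0.17 in Zn. Over the 4 lines, *Mtf1* in Cu was higher by 0.10 on the log2 scale, in 4 of 4 lines (exact two-sided permutation test, p = 0.00772, adjusted 0.00926), and in Zn by 0.02 (p = 0.792). The Cu call was lost without the *Baf180* KD line and without the *Baf250a* KD line (exact permutation, adjusted p = 0.0556 for each), and its size was 0.06 with library totals in place of TMM scaling (exact permutation, adjusted p = 0.0426). The 6 differences of the metal response between a KD line and scr were positive, from 0.10 to 0.33, and 0 passed the threshold in edgeR. Only that of *Baf250a* KD in Zn had an unadjusted p under 0.05, and its edgeR adjusted p was 0.103.

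**Figure D5:**
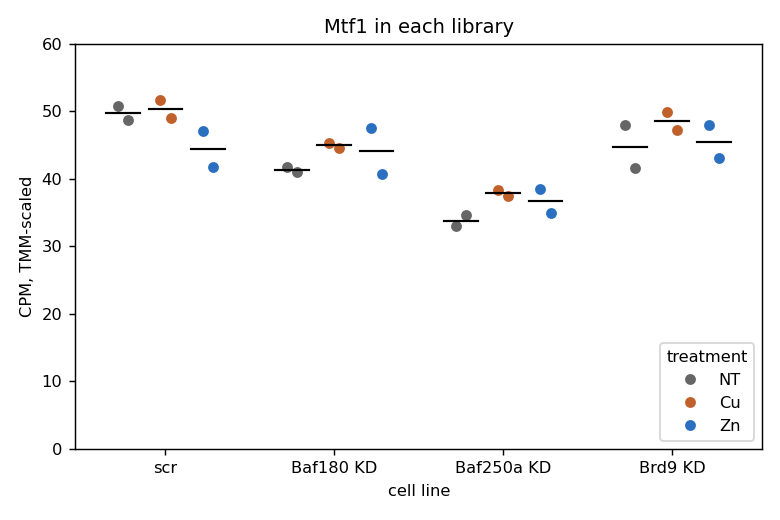
*Mtf1* level in each library as TMM-scaled CPM, by cell line and treatment, on a linear axis from 0, with the mean of the 2 libraries as a line. The 6 *Baf250a* KD libraries lie between 33.0 and 38.5 CPM, below the 6 scr libraries.

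*Mt3* was barely detected. It had 5 counts in 2 of the 24 libraries, 4 in replicate 2 of scr Zn and 1 in replicate 2 of *Baf180* KD Zn, and it did not pass the filter on low counts. In a library with 0 counts, a level of up to 3 counts is allowed, which is 0.0667 to 0.221 CPM in the libraries of ordinary depth and 5.83 CPM in the shallow one. *Mt4* had 1 count in all. Both libraries with *Mt3* counts were Zn-treated, and the deepest library held 4 of the 5 counts. *Gm45774*, an antisense gene that overlaps *Mt2*, had 0 to 1.13 CPM in the libraries of ordinary depth and 1 count in the shallow one, in libraries made and counted with strand. This gene was looked up after the *Mt2* values were seen. The authors kept only uniquely mapped reads, so reads that match *Mt1* and *Mt2* alike would be absent from both counts.

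Other genes described as MTF1 targets moved in part with the metallothioneins. Of the 13 listed, 11 passed the filter on low counts and *Mt4* and *Slc30a2* did not. In Zn, edgeR called 2 higher and 3 lower in scr, 1 higher and 1 lower in *Baf180* KD, 4 higher and 1 lower in *Baf250a* KD, and 1 higher and 1 lower in *Brd9* KD, where 17.6%, 0.0197%, 15.9% and 0.0334% of all genes tested were called. Their median log2 change was -0.20, 0.09, 0.30 and 0.04, beside medians over all genes between -0.01 and 0.00. *Slc30a1*, the plasma membrane Zn exporter, rose in all 4 lines, by 1.44 ± 0.11 in scr, 1.02 ± 0.12 in *Baf180* KD, 0.77 ± 0.14 in *Baf250a* KD and 0.99 ± 0.11 in *Brd9* KD (edgeR adjusted p 0.00555, 0.0231, 5.08e-04 and 0.0289). In *Baf250a* KD its 2 Zn libraries, at 49.4 and 25.3 CPM, lay on both sides of the untreated ones, at 25.5 and 29.4 CPM. The low value rested on 13 counts of the shallow library, without which the difference was 0.84. *Slc39a10*, a Zn importer, fell in all 4 lines, by 0.88 ± 0.12, 1.28 ± 0.12, 1.06 ± 0.14 and 1.27 ± 0.10 in the same order (edgeR adjusted p 0.0275, 0.00474, 2.39e-05 and 0.0036).

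In Cu, edgeR called only *Gclc* among the 11, and it was higher. The share of all genes called in Cu was 0.0333% in scr, 13.8% in *Baf180* KD, 1.27% in *Baf250a* KD and 0.274% in *Brd9* KD. A call of 1 of the 11 in *Baf180* KD does not exceed that share. *Gclc*, the catalytic subunit of the enzyme that starts glutathione synthesis, rose by 0.54 ± 0.08 in *Baf180* KD, 0.69 ± 0.08 in *Baf250a* KD and 0.55 ± 0.07 in *Brd9* KD (edgeR adjusted p 0.00778, 1.64e-05 and 0.0283), while its scr difference of 0.41 ± 0.09 missed the threshold (edgeR adjusted p = 0.397). Without metal, the list split in the KD lines, with 4 higher and 4 lower in *Baf180* KD, 5 and 3 in *Baf250a* KD and 5 and 4 in *Brd9* KD, beside 41.0%, 57.8% and 29.2% of all genes called. *Slc30a1*, *Gclc* and *Cebpa*, a transcription factor of adipocyte and myeloid cells, were called higher in all 3 lines, and *Slc25a3* and *Ndrg1* lower in all 3. *Slc30a1* was higher by 0.57 ± 0.15, 1.30 ± 0.14 and 0.52 ± 0.15 in untreated *Baf180*, *Baf250a* and *Brd9* KD cells. For the Zn response, a difference between a KD line and scr was called for *Slc30a1* only in *Baf250a* KD (-0.63 ± 0.21, edgeR adjusted p = 0.0278).

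In untreated KD cells against scr and in Zn against NT, the genes around the metallothionein cluster moved less than *Mt1* and *Mt2*. Within 250 kb, 8 other protein-coding genes are annotated, and 7 of them passed the filter. Without metal, edgeR called 4 of the 7 higher in *Baf180* KD, 4 higher and 1 lower in *Baf250a* KD and 1 higher in *Brd9* KD, with medians of 0.40, 0.38 and 0.13. Of all genes tested, 21.7%, 28.9% and 15.1% were called higher, so that 1 of 7 in *Brd9* KD is near the background. The highest was *Bbs2*, a gene of cilium assembly, at 0.90 ± 0.14 in *Baf250a* KD, against 2.46 for *Mt2* in that line. In scr cells with Zn, *Nudt21* was the only one of the 7 that was called, at 0.35 ± 0.09 (edgeR adjusted p = 0.0442), where 17.6% of all genes were called. In *Baf250a* KD with Zn, where 15.9% were called, *Nup93* was called higher (0.57 ± 0.10) and *Herpud1* lower (-0.33 ± 0.11). Zn called 0 of the 7 in *Baf180* KD and in *Brd9* KD. Against scr in Zn, 6, 6 and 1 of the 7 were called higher in *Baf180*, *Baf250a* and *Brd9* KD, beside 24.9%, 29.4% and 12.6% of all genes.

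Of 11570 genes whose normalized counts averaged 50 or more, the 4 with the 8 metal responses most like the mean of *Mt1* and *Mt2* were *Fam122b*, *Plekhg4*, *Cdk19* and *Slc30a1* (Pearson r 0.958, 0.954, 0.946 and 0.946). The 8 points share the untreated libraries of each line, so these are descriptions with no test. The spread of the 8 responses was 2.56 on the log2 scale for the metallothionein mean, 0.80 for *Fam122b*, 0.41 for *Plekhg4* and 0.32 for *Cdk19*. Pearson r compares the pattern of the responses and not their sign. *Mt1* and *Mt2* were higher in all 8, whereas *Fam122b*, *Plekhg4* and *Cdk19* were lower in Cu in every line. These genes were also lower in Zn in *Baf180* and *Baf250a* KD, for example *Fam122b* by 0.089 and 0.24. *Mt1* and *Mt2* themselves had r = 0.994. Closest to *Mtf1* over the 12 condition means were *Mrpl38*, *Gatad2a*, *Usp36*, *Rps12* and *Cct2* (r from 0.980 to 0.989). With TMM factors taken over all genes, 3 of the 5 closest names stayed the same for the metallothioneins and 3 of 5 for *Mtf1*. *Slc30a1* then ranked 3 and *Cdk19* was no longer among the 5.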

How the data were processed

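RNA-seq libraries of 12 conditions with 2 replicates each were analysed. The authors removed ribosomal RNA, made strand-specific libraries, aligned read pairs to mm10 with STAR, kept uniquely mapped reads and counted them per gene with featureCounts. The deposited table holds these raw counts, and they were used as they stand. Deposited tables of the authors' own DESeq2 comparisons hold their fold changes and p-values and were not used. Samples were grouped by title, since a treatment tag contradicts the titles.

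Counts were tested in R 4.3.3 with edgeR 4.0.16 (TMM, filterByExpr, glmQLFTest) at a Benjamini-Hochberg adjusted p under 0.05 over all genes tested. Each metal was tested against NT in a fit of the line's 6 libraries, KD against scr on the 4 libraries compared, and differences of responses on all 24. CPM used TMM factors over the 24 libraries from genes that passed the filter, with a prior count of 2 for log2. These factors were first taken over all genes, and the gene set was changed after the resulting values had been seen, to match the edgeR fits. Single values were tested by exact permutation within lines. The ratio used a pseudocount of 0.5. Scripts were tested on simulated data. DESeq2 1.42.0, RLE factors, a filter of at least 1 count, all 24 libraries, a replicate block, a GC and length correction, other prior counts and leaving out libraries or lines were alternatives. RLE and library totals in the permutation tests, the first TMM version and the CPM scale of the Zn difference were added after the data had been seen.

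The named genes are the 4 members, 13 genes described as regulated by MTF1, protein-coding genes within 250 kb of the *Mt4* to *Mt1* span, the targeted genes, cell type markers, and the 5 genes most alike in pattern, of which 1 is not reported here. The members and lists were chosen with earlier results of these data known. Promoter sequences are RefSeq's for GRCm38.p6 and coordinates are GENCODE M21's.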

Additional observations from a re-analysis of the deposited data

Results flagged for a closer look

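The response of the metallothioneins to Zn differed between KD and scr cells by a test of the difference itself, the interaction contrast of the edgeR fit over all 24 libraries. For *Mt1* the log2 difference was -1.01 in *Baf180* KD and -1.29 in *Baf250a* KD. For *Mt2* it was -1.58 in *Baf180* KD, -2.18 in *Baf250a* KD and -1.19 in *Brd9* KD. The 5 contrasts share the scr libraries. The *Mt2* call in *Brd9* KD was lost after GC and length correction (edgeR adjusted p = 0.118) and in some fits with a scr library left out. As differences of mean CPM, on which no test was made, the *Mt1* values were 128 ± 115 and 46.8 ± 57.4 (SE). Those of *Mt2* were 64.2 ± 35.0, -34.8 ± 35.0 and 36.1 ± 16.9, in the same order of lines. The smaller response in KD cells is thus a statement about the log2 scale. Untreated *Mt1* and *Mt2* were higher in these KD lines than in scr, and the part of that untreated level in the smaller log2 response was not tested.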

How the results depend on the processing

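With 2 libraries a condition, leaving 1 out assumes that the remaining one varies like the other groups, and the number of called genes is unstable. For Zn in scr, 2645 genes were called, 14 to 4968 under other settings and 5 to 2572 when a library was left out. For the Zn difference in *Brd9* KD, 1837 were called, and 0 to 2639 under other settings. GC content moved with level differently among libraries, with slopes from -0.353 to 0.334 log2 per 10 points. The slopes went partly with condition. They were 0.095 and 0.334 in untreated scr, -0.270 and -0.353 in scr with Zn, and -0.211 to -0.0085 in the untreated KD libraries. The Zn contrast in scr and the untreated KD contrasts with scr therefore also differ in this trend, and its part in them was examined only by the GC and length correction. The untreated differences of *Mt1* and *Mt2* from scr and the Zn responses of *Mt2* kept their direction and side of the threshold under all settings and left-out libraries tried. The *Baf250a* KD Zn results rest on 1 library of ordinary depth.

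The samples share replicate numbers, and the correlation of their deviations ran from -0.449 to 0.575 in 12 pairs of conditions within lines, of which 5 were over 0.1. In *Baf180* KD all 3 were (0.167, 0.316 and 0.562), so the numbers may pair the libraries of that line. In scr and *Brd9* KD the signs were mixed. Between KD and scr, 9 pairs ran from -0.529 to 0.388, and 3 were over 0.1. With 1 deviation a condition, these values cannot exclude a pairing in the other lines or of KD with scr. With the block, *Mt2* in Cu in *Baf180* KD passed at 0.26, *Mt1* in Zn in *Baf180* KD at 1.28 and the *Mt1* Zn difference in *Brd9* KD at -0.73, and the *Mt1* Cu difference in *Baf250a* KD was 0.002319. With DESeq2, *Mt1* passed in Zn in *Baf180* KD (1.29), in Cu in *Brd9* KD (0.50) and as the Zn difference in *Brd9* KD (-0.81), and *Mtf1* in *Brd9* KD against scr in Zn was -0.005191. With GC and length correction, *Mt1* in Cu in *Brd9* KD passed (0.47), as did *Mtf1* against scr in untreated *Baf180* KD (-0.48), in *Baf180* KD in Zn (-0.24) and in *Baf250a* KD in Zn (-0.47). With the same correction the *Mt2* Zn difference in *Brd9* KD was lost at -1.501, its Cu difference there was -0.090 and *Mtf1* in *Brd9* KD in Zn was -0.10. With a filter of at least 1 count, *Mt2* in Cu passed in scr (0.49) and *Baf180* KD (0.26), *Mt1* in Zn in *Baf180* KD (1.28), *Mt1* in Cu in *Brd9* KD (0.51), *Mtf1* in *Baf250a* KD in Zn (-0.29) and the *Mt1* Zn difference in *Brd9* KD (-0.78), and *Mtf1* in *Brd9* KD in Zn was -0.011. RLE passed *Mtf1* in *Baf250a* KD in Zn (-0.28) and the *Mt1* Zn difference in *Brd9* KD (-0.81) and gave 0.00212 for the *Mt1* Cu difference in *Baf250a* KD. A fit of all 24 libraries passed *Mt1* in Zn (1.30) and untreated *Mtf1* (-0.27) in *Baf180* KD. The cause of these changes was not tested.

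On the CPM scale, added after the data had been seen, the Zn differences of *Mt1* were 128, 46.8 and 75.8 and those of *Mt2* 64.2, -34.8 and 36.1 in *Baf180*, *Baf250a* and *Brd9* KD. Over the lines, *Mt1* in Cu without *Baf250a* KD was 0.36 and *Mtf1* in Cu 0.10 without *Baf180* KD and 0.086 without *Baf250a* KD, all with an exact permutation adjusted p of 0.0556, and *Mtf1* in Zn was -0.0078 and -0.018 without these lines. TMM factors over all genes, the version computed first, gave *Mtf1* in Cu 0.12 in place of 0.10.

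Leaving out single libraries moved *Mt1* in Zn between 2.30 and 2.50 in scr and between 1.02 and 1.51 in *Baf180* KD, and *Mt2* in Cu in *Brd9* KD between 0.51 and 0.63. Against scr in Zn, *Mt2* ran from 0.094 to 0.51 in *Baf250a* KD and 0.40 to 0.51 in *Brd9* KD, and *Mtf1* from -0.16 to 0.032 in *Baf180* KD, -0.36 to -0.18 in *Baf250a* KD and -0.081 to 0.078 in *Brd9* KD. *Mtf1* in *Baf250a* KD in Cu ran from -0.43 to -0.35. The Cu response of *Mtf1* ran from -0.017 to 0.10 in scr and -0.011 to 0.15 in *Brd9* KD, and its Zn response from -0.16 to 0.0001918 in scr, -0.030 to 0.17 in *Baf180* KD, -0.061 to 0.10 in *Brd9* KD and -0.012 to 0.044 over the lines. Differences from the scr response ran from -0.31 to 0.19 and from -0.25 to 0.25 for *Mt1* in Cu in *Baf180* and *Baf250a* KD, from -0.004507 to 0.20 for *Mtf1* in Cu in *Brd9* KD and from -1.295 to -1.10 for *Mt2* in Zn in *Brd9* KD.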
